A study of Mus musculus with 8 samples.

Results

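The genes described here are 9 basic helix-loop-helix (bHLH) factors of neural and glial development, Neurog1, Neurog2, Neurod1, Neurod4, Helt, Hes6, Olig1, Olig2 and Tcf4, followed in mouse neural progenitor cells and at 72 h of reprogramming. They were chosen by name, and every non-control array probe whose accession mapped to one of them through RefSeq was used, which gave 12 probes of the 27584 probes with a gene symbol and 9 of 18842 genes. The 8 arrays hold total RNA of N31, a neural progenitor cell (NPC) line that came from mouse embryonic stem cells. The groups, of 2 arrays each, are W20-expressing cells 72 h after the start of reprogramming, EGFP-expressing cells at the same time, W20-expressing NPC, and EGFP-expressing NPC, the control. EGFP is a fluorescent protein; the title of the series speaks of bacterial proteins that accelerate reprogramming, and the labels say no more of what W20 is. All cells carry one of these transgenes and grew with EGF and bFGF at 10 ng/ml each. At 72 h they had in addition received 40 ng/ml doxycycline, of which 48 h passed in the progenitor medium and 24 h in a medium with 10% serum replacement (KSR), ACTH and 1000 U/ml LIF, so that time, doxycycline and medium differ together between 72 h and NPC. The labels name neither the promoter of the transgenes nor the reprogramming factors, nor whether N31 is a clone.

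A bHLH protein binds DNA as a dimer at the E-box, a short motif spelled CANNTG. Proneural factors such as the neurogenins pair with E proteins, of which Tcf4 is one, switch on neuronal genes and, through the ligand Dll1, activate Notch in neighbouring cells. Notch in turn induces repressors of the HES and HEY families, which silence proneural genes, while ID proteins, which lack the DNA-binding part, capture E proteins. In neural tissue the balance between these groups sets whether a progenitor keeps dividing, becomes a neuron or becomes glia.

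The start regions of 4 of the genes are given because Neurog2 and Helt were both first measured above background at 72 h, Hes6 rose there, and Neurog1, the close relative of Neurog2, had no difference between the stages past the test. RefSeq windows (build GRCm38.p6) of 300 bases, 250 before and 50 after a transcript start, were used for 7 of the 9 genes, as 9 windows. They are written 5′ to 3′ on the gene's strand. Capitals mark each E-box and a 9-base run, CGTGTGCCA, that 3 of the windows share.
Helt, chr8:46294622-46294921, minus strand: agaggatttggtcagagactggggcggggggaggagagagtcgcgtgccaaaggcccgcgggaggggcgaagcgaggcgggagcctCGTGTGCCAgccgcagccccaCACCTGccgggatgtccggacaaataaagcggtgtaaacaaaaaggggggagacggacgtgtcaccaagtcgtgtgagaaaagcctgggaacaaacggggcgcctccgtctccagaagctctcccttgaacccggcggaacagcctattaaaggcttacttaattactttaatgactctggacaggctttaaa
Neurog2, chr3:127632886-127633185, plus strand: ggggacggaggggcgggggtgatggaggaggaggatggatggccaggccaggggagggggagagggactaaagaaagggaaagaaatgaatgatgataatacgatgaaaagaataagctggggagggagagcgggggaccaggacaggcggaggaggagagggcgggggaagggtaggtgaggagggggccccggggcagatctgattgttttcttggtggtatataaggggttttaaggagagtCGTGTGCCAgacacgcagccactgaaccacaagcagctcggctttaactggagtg
Neurog1, chr13:56252131-56252430, minus strand: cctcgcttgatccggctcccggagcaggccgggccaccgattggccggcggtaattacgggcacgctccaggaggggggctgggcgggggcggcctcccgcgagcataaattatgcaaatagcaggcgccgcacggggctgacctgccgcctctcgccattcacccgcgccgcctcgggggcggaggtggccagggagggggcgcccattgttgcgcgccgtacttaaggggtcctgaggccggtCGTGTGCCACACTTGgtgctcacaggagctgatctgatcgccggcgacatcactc
Hes6, chr1:91413989-91414288, minus strand: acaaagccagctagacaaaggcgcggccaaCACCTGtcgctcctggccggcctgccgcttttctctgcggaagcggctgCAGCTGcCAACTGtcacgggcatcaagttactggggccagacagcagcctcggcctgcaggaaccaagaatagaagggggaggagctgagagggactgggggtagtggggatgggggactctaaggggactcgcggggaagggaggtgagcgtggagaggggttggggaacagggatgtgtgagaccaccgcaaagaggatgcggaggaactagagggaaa

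The E-box was searched as CANNTG, which reads the same on both strands, and 72.3% of all 32851 RefSeq windows of this length hold at least 1. The Helt and Neurog1 windows held 1 E-box each and the Neurog2 window 0. Hes6 has 2 windows: the one printed held 3 E-boxes, 1 of them a CAGCTG, and 17.6% of all windows hold as many, while the other, chr1:91413173-91413472, held 1. CAGCTG itself is found in 16.3% of all windows. The run CGTGTGCCA begins at base -5 from the start in both Neurog1 and Neurog2, and at base -164 in Helt. In Neurog1 it runs directly into the E-box CACTTG, which begins at base 5 of the transcript. On either strand (reverse complement TGGCACACG) the run lies in 47 of all 32851 windows (0.143%). It was chosen after the sequences had been read, so its count carries no test, and of the 81 genes on all lists used here that have a window, only these 3 hold it. A match is a description of the letters and not a binding site.

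**Figure D1:**
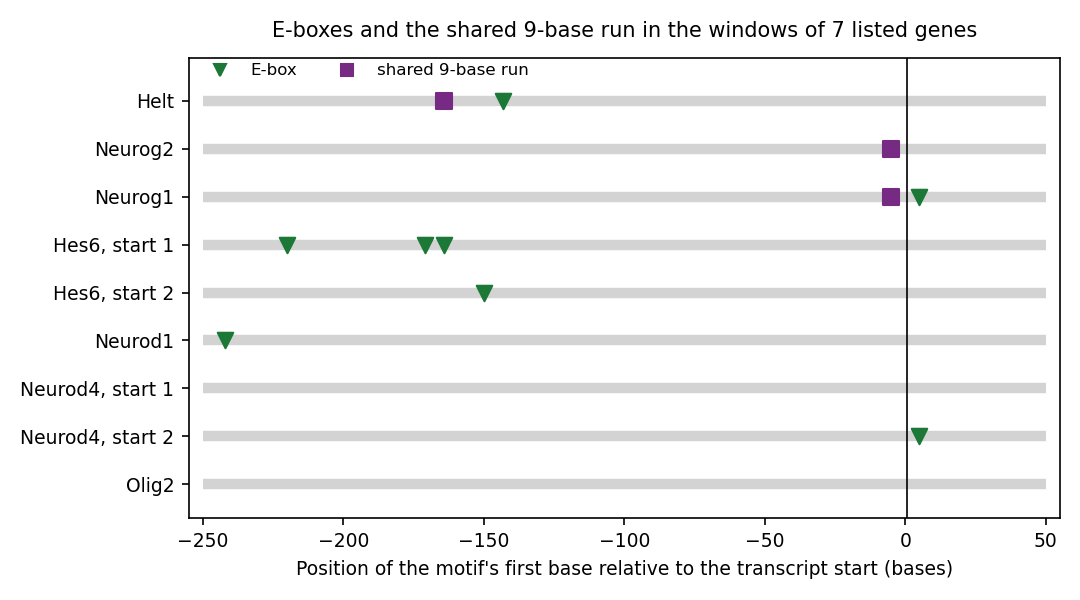
Position of motifs in the 9 RefSeq windows of 7 listed genes, in bases from the transcript start (vertical line). Triangles are E-boxes and squares the shared 9-base run. The run begins at the same place in Neurog2 and Neurog1, and the first Hes6 window has 3 E-boxes while those of Neurog2, Olig2 and the first start of Neurod4 have 0.

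The arrays were even in quality. The 75th percentile of the signal, by which each array was scaled, was 829 to 940 intensity units, 57.0% to 62.4% of spots lay well above background with 0 saturated, and replicates correlated at 0.999 or more over 12155 genes. All NPC arrays lie on 1 slide with 1 scan and all 72 h arrays on another, and on both slides EGFP arrays take positions 1 and 2 and W20 arrays positions 3 and 4. Stage and slide, and W20 and position on the slide, therefore cannot be told apart. The labelled cell type was checked on its markers: of 11 progenitor markers Nes, Sox2, Pax6, Vim, Slc1a3 and Msi1 were among those well above background on 8 of 8 arrays, Prom1 was so on 6, Fabp7 and Sox1 on 5 and Hes5 on 2. Markers of other cell types were also measured. Well above background on 8 arrays were the neuronal Tubb3, Map2, Stmn2, Syt1 and Nefl (Snap25 on 0), the astrocyte genes Aldh1l1, S100b, Gja1 and Sparcl1 (Aqp4 and Slc1a2 on 0), and the oligodendrocyte genes Mbp, Mag, Pdgfra and Cspg4 (Mog on 0). So were the pluripotency genes Zfp42, Utf1 and Dppa5a (Pou5f1 and Lin28a on 0) and the mesenchymal Col1a1, Col1a2, Dcn and Thy1. The endothelial Pecam1 and Cdh5 and the immune Ptprc and Aif1 were so on 0 arrays. The endothelial Kdr and Tek were so on 4 and 3 arrays, and the immune Csf1r on 1.

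Of the 9 genes, 5 were measured well enough to be tested, Neurog1, Neurog2, Helt, Hes6 and Tcf4. For a test, at least 1 group had to be well above background on each of its arrays, which 72.3% of all genes met. Neurog2 and Helt met it through their 72 h arrays alone, so a difference from NPC is built into their being tested. Neurod4, Olig1 and Olig2 were well above background on 0 of 8 arrays, a state shared by 23.1% of all genes, and Neurod1 on 1. Differences are log2 values, the signal of the first-named group minus that of the second, with the standard error (SE) of the limma fit and p-values adjusted by Benjamini-Hochberg over 13617 genes. No label gives the replicates as separate cultures, and p-values then cover just the spread of these arrays, which may be technical. In such bulk RNA, more cells of a type and more RNA per cell cannot be told apart.

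**Figure D2:**
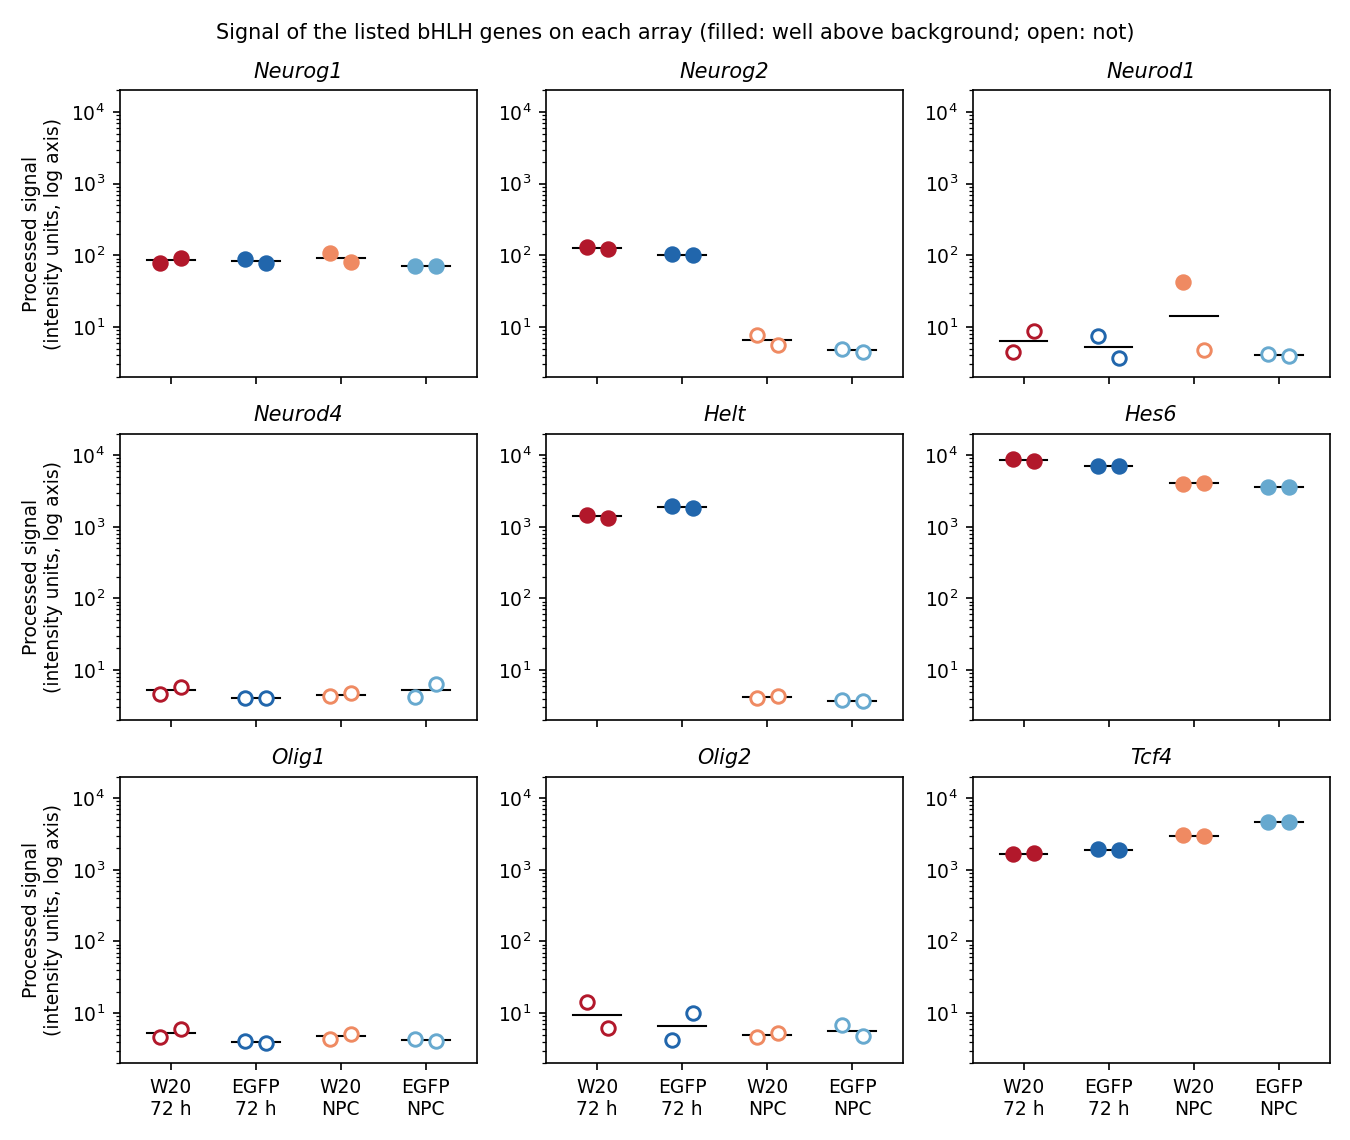
Processed signal (intensity units, log axis) of the 9 genes on each of the 8 arrays, 2 arrays per group, with each group's geometric mean as a line. Filled points are well above background and open points are not. Neurog2 and Helt have 4 filled points, all at 72 h, and Neurod1 has 1.

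The neurogenins are the factors that commit progenitors to a neuronal fate, and they behaved differently. The Neurog2 probe (A_51_P370615) gave 133 and 123 units in W20 cells at 72 h and 106 and 99.5 units in EGFP cells at 72 h. It gave 7.66 and 5.56 units in W20 NPC and 4.96 and 4.53 units in EGFP NPC. All 4 arrays at 72 h lay above all 4 NPC arrays. The stages did not overlap for 87.7% of all genes in W20 cells and 86.1% in EGFP cells, and Neurog2 was tested through its 72 h arrays alone. No NPC array was well above background. At 72 h Neurog2 was thus at least 6.65-fold higher than in NPC in W20 cells (adjusted p = 1.79e-06) and at least 5.52-fold higher in EGFP cells (adjusted p = 3.09e-06). Such a bound sets the measured mean against the lowest signal well above background on each dim array, which was 17.6 to 20.8 units in NPC. It holds for the processed signal only, and p-values beside bounds belong to the fitted differences. With normexp background correction the log2 differences were 1.39 in W20 and 0.89 in EGFP cells, smaller than these bounds.

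W20 cells at 72 h had more Neurog2 signal than EGFP cells, by 0.47 ± 0.135 (SE, 2 arrays per group, adjusted p = 0.0301), and the arrays of the groups did not overlap, as for 78.1% of all genes. The call ended with each of the 4 arrays at 72 h left out (adjusted p = 0.0656 to 0.124), with quantile scaling (adjusted p = 0.0788) and with normexp background correction (adjusted p = 0.0506). In NPC the difference was 0.48 ± 0.135 (adjusted p = 0.0261), but with all 4 arrays not well above background it is given no fold. That call held in 11 of 18 settings: it turned to -0.17 with normexp (adjusted p = 0.244), and it was lost on leaving out replicate 1 (adjusted p = 0.0613) or 2 (adjusted p = 0.115) of EGFP NPC, with quantile scaling (adjusted p = 0.2), without a filter (adjusted p = 0.0535), with the 2 groups alone (adjusted p = 0.0776) and with the authors' deposited table (adjusted p = 0.0806). Without W20 NPC replicate 1 the difference was 0.27.

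Neurog1 (A_51_P298790) was well above background on all 8 arrays at a signal that hardly moved. It had 78.4 and 91.8 units in W20 cells at 72 h, 87.6 and 78.9 in EGFP cells at 72 h, 106.5 and 79.9 in W20 NPC and 70.9 and 70.3 in EGFP NPC. The groups lie within a narrow band, and the largest gap between replicates is that of W20 NPC. Between 72 h and NPC Neurog1 differed by -0.06 ± 0.134 in W20 cells (adjusted p = 0.721) and by 0.17 ± 0.134 in EGFP cells (adjusted p = 0.302). W20 NPC exceeded EGFP NPC by 0.41 ± 0.134 (adjusted p = 0.0442), a call that held in 8 of 19 settings. With normexp the difference was 0.11 (adjusted p = 0.407). The call also ended with spike-in scaling (adjusted p = 0.101), without a filter (0.0838), with the 2 groups alone (0.081), with the replicate block (0.0651) and with the authors' deposited values (0.085). Among single arrays, it ended without any of the 4 NPC arrays except W20 NPC replicate 2, or without either EGFP array at 72 h. Without W20 NPC replicate 1 the difference was 0.22. At 72 h the W20 difference was 0.18 ± 0.134 (adjusted p = 0.293). The 2 genes whose profile over the 8 arrays came closest to Neurog1 were B830017H08Rik and Tsks, at root mean square distances of 0.0854 and 0.0857 log2 units, against a median of 0.277 over 12155 genes.

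Neurod1 and Neurod4 act after the neurogenins, in cells that are turning into neurons. Neurod1 (A_52_P408391) had 42.2 units on W20 NPC replicate 1, where it was well above background, and 4.83 units on the other W20 NPC array. On the 6 remaining arrays it had 3.63 to 8.80 units. The signal of 1 array was not repeated by its replicate, and Neurod1 was not tested. Neurod4 (A_51_P200203) had 4.01 to 6.48 units on the 8 arrays, none well above background.

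Helt, a repressor of the HES-related kind known in the mouse for specifying GABAergic neurons of the midbrain, changed most of the 5 tested genes between the stages. Its probe (A_52_P268852) gave 1443 and 1342 units in W20 cells at 72 h and 1952 and 1827 units in EGFP cells at 72 h. In W20 NPC it gave 4.03 and 4.39 units and in EGFP NPC 3.81 and 3.66 units, none well above background. Helt was at least 72.5-fold higher at 72 h than in NPC in W20 cells (adjusted p = 7.14e-08) and at least 102-fold higher in EGFP cells (adjusted p = 7.28e-08). With normexp the log2 differences were 4.60 in W20 and 4.71 in EGFP cells, smaller than these bounds. Neurog2 and Helt belong to 179 of 13617 genes (1.31%) that were well above background on 0 of 4 NPC arrays and 4 of 4 arrays at 72 h. Ranked among these 179 by that lower bound, Helt stood at place 5 in W20 cells and 3 in EGFP cells, with median bounds of 3.66-fold and 3.24-fold, and Neurog2 at places 52 and 63.

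Unlike Neurog2, Helt was lower in W20 than in EGFP cells at 72 h, by -0.29 ± 0.0661 (adjusted p = 0.0138), and both W20 arrays lay under both EGFP arrays. The groups did not overlap for 78.1% of all genes. The call ended without EGFP replicate 1 (adjusted p = 0.0659) or W20 replicate 2 (adjusted p = 0.0638) at 72 h and with normexp (adjusted p = 0.19). In NPC the difference was 0.19 ± 0.0661 (adjusted p = 0.0513), between signals that were not well above background.

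Hes6, which in the mouse antagonises Hes1 and favours neuronal differentiation, was bright on every array and rose with time and with W20. Its brighter probe (A_51_P429366) gave 8829 and 8413 units in W20 cells at 72 h, 7148 and 6950 in EGFP cells at 72 h, 4015 and 4087 in W20 NPC and 3645 and 3622 in EGFP NPC. No groups overlap on this probe, and their order from the highest is W20 at 72 h, EGFP at 72 h, W20 NPC and EGFP NPC. Over all genes the stages did not overlap for 87.7% in W20 cells and 86.1% in EGFP cells. W20 and EGFP did not overlap for 78.1% at 72 h and 80.9% in NPC. Hes6 rose at 72 h over NPC by 1.15 ± 0.0396 in W20 cells (2.23-fold, adjusted p = 2.63e-06) and by 0.89 ± 0.0396 in EGFP cells (1.85-fold, adjusted p = 1.08e-05). W20 over EGFP was 0.44 ± 0.0396 at 72 h (1.36-fold, adjusted p = 0.000489), which passed in 18 of 18 settings, and 0.18 ± 0.0396 in NPC (1.13-fold, adjusted p = 0.0115), which passed in 15 of 19. In NPC the test no longer passed once EGFP replicate 1 (adjusted p = 0.0523) or W20 replicate 2 (adjusted p = 0.0648) was left out, with the mean of the probes (adjusted p = 0.0588) and with spike-in scaling (adjusted p = 0.115).

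The W20 effect on Hes6 was larger at 72 h than in NPC, by 0.27 ± 0.056 (adjusted p = 0.0181), a call that held in 11 of 17 settings (adjusted p up to 0.156). Of single arrays, those whose removal ended it were replicate 1 of EGFP at 72 h, both of EGFP NPC, and replicate 1 of W20 NPC (adjusted p = 0.0514 to 0.0613). The dimmer Hes6 probe (A_52_P512301) gave 719 and 687 units in W20 cells at 72 h, 586 and 551 in EGFP cells at 72 h, 285 and 319 in W20 NPC and 291 and 270 in EGFP NPC. In a fit over all 20342 probes it rose at 72 h by 1.29 ± 0.0742 in W20 cells (adjusted p = 2.19e-05) and by 0.95 ± 0.0742 in EGFP cells (adjusted p = 0.000103), and W20 over EGFP was 0.46 ± 0.0742 at 72 h (adjusted p = 0.0043). In NPC that probe's groups overlap (0.13 ± 0.0742, adjusted p = 0.2). Its difference of the W20 effects between 72 h and NPC did not pass (0.33 ± 0.105, adjusted p = 0.0664). Of all probes 73.6% were called between the stages in W20 cells, 68.6% in EGFP cells, 48.7% for W20 at 72 h, 52.3% for W20 in NPC and 26.7% in the difference of the effects. The genes with the profile closest to Hes6 over the 8 arrays were Fam126a and Pgm2, at 0.0427 and 0.0503 log2 units, against a median of 0.552.

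Tcf4, an E protein and thus a dimer partner of the proneural factors, ran the other way. Its brighter probe (A_52_P424847) gave 1662 and 1717 units in W20 cells at 72 h, 1956 and 1877 in EGFP cells at 72 h, 3074 and 2931 in W20 NPC and 4707 and 4660 in EGFP NPC. EGFP NPC had the highest level, W20 NPC the next, and the 72 h groups the lowest, where they differed by -0.03 ± 0.0304 after scaling (adjusted p = 0.452). Tcf4 fell at 72 h by 0.76 on the log2 scale in W20 cells (SE 0.0304, 1.70-fold, adjusted p = 4.43e-06) and by 1.36 in EGFP cells (SE 0.0304, 2.56-fold, adjusted p = 1.18e-06). In NPC it was 1.54-fold lower with W20 than with EGFP (-0.62 ± 0.0304, adjusted p = 9.62e-05), which passed in 19 of 19 settings.

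The W20 effect on Tcf4 differed between 72 h and NPC by 0.59 ± 0.043 (adjusted p = 0.000615), and the call ended only with the mean of the probes (0.43, adjusted p = 0.0511). The dimmer Tcf4 probe (A_52_P521101) gave 81.0 and 59.5 units in W20 cells at 72 h, 93.2 and 71.8 in EGFP cells at 72 h, 92.3 and 90.4 in W20 NPC and 110 and 126 in EGFP NPC. Its replicates at 72 h stand further apart than those of the brighter probe. That probe fell by 0.59 at 72 h in EGFP cells (SE 0.175, adjusted p = 0.0248), while -0.33 ± 0.175 at 72 h in W20 cells (adjusted p = 0.135) and -0.35 ± 0.175 for W20 in NPC (adjusted p = 0.148) did not pass. Nor did its difference of the W20 effects between 72 h and NPC (0.26 ± 0.248, adjusted p = 0.482). Selenbp2 and Selenbp1 had the profiles closest to Tcf4, at 0.0422 and 0.0575 log2 units, against a median of 0.613.

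**Figure D3:**
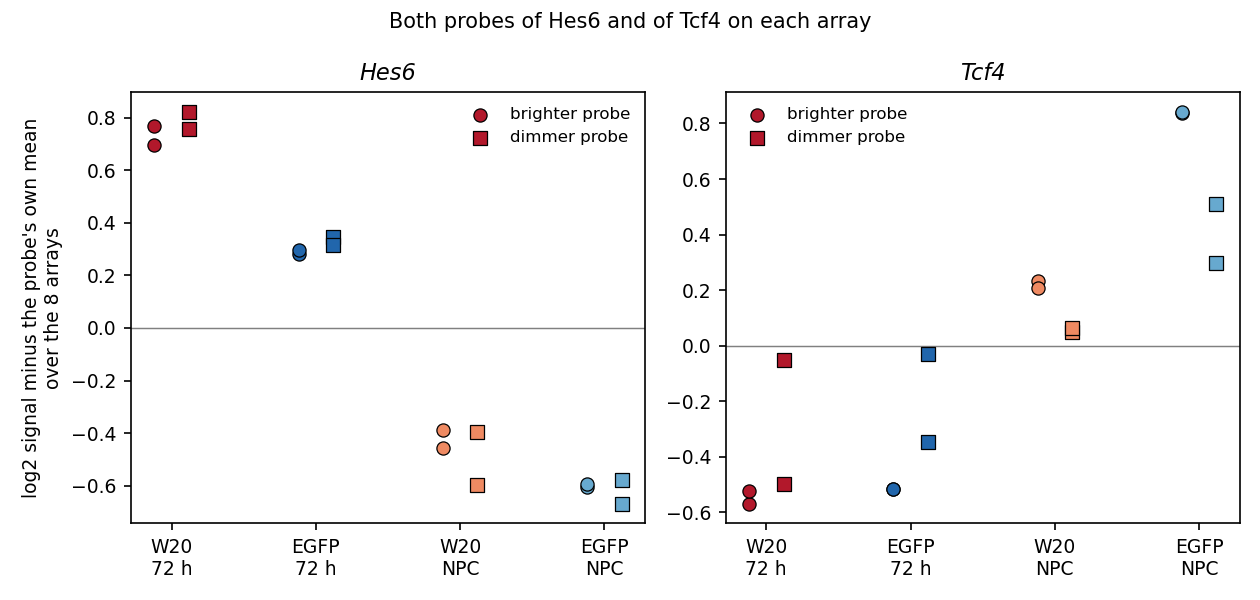
Log2 signal of both probes of Hes6 and of Tcf4 on each array, minus the probe's own mean over the 8 arrays (circles, brighter probe; squares, dimmer probe; 2 arrays per group). The Hes6 probes follow each other in all 4 groups, while the dimmer Tcf4 probe has the smaller range and, at 72 h, the wider gaps between replicates.

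Olig1 and Olig2 specify oligodendrocytes, and Olig2 also motor neurons. Olig1 (A_52_P603038) had 3.77 to 6.06 units over the 8 arrays. The Olig2 probes had 4.22 to 14.4 units (A_51_P367451) and 3.98 to 9.57 units (A_52_P223626). None of the 3 probes was well above background on any array, so these factors were not detectable here.

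Counted over the 5 tested genes, 3 rose and 1 fell at 72 h over NPC in W20 cells, and likewise 3 and 1 in EGFP cells. In each kind of cell 2 of the rises, Neurog2 and Helt, were of genes below background in NPC, tested through their 72 h arrays alone. Of all 13617 genes 74.6% were called in W20 cells (37.5% higher, 37.2% lower) and 69.9% in EGFP cells (36.1% higher, 33.8% lower), so that a count of 4 of 5 does not set these genes apart. Groups did not overlap for 87.7% of all genes in W20 cells and 86.1% in EGFP cells. W20 against EGFP at 72 h had 2 higher and 1 lower (28.4% and 24.4% of all genes, 52.7% together), and in NPC 3 higher, of which Neurog2 was below background in both groups, and 1 lower (31.8% and 23.6%, 55.5% together; groups did not overlap for 80.9%). The difference of the W20 effects had 2 higher, Hes6 and Tcf4, and 1 lower, Helt, whose NPC signals were below background (13.9% and 16.9%, 30.9% together); it did not pass for Neurog1 (-0.22 ± 0.189, adjusted p = 0.415) or Neurog2 (-0.01 ± 0.19, adjusted p = 0.966). The median of the 5 tested genes was 0.18 at 72 h and 0.19 in NPC for W20 against EGFP, beside 0.03 and 0.04 over all genes tested. That NPC median is the value of Helt, which was below background in both groups. Without the 2 genes so placed, Helt and Neurog2, the NPC median was 0.178. At 72 h 53.8% of all calls were higher in W20 cells, and 39.6% with spike-in scaling.

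**Figure D4:**
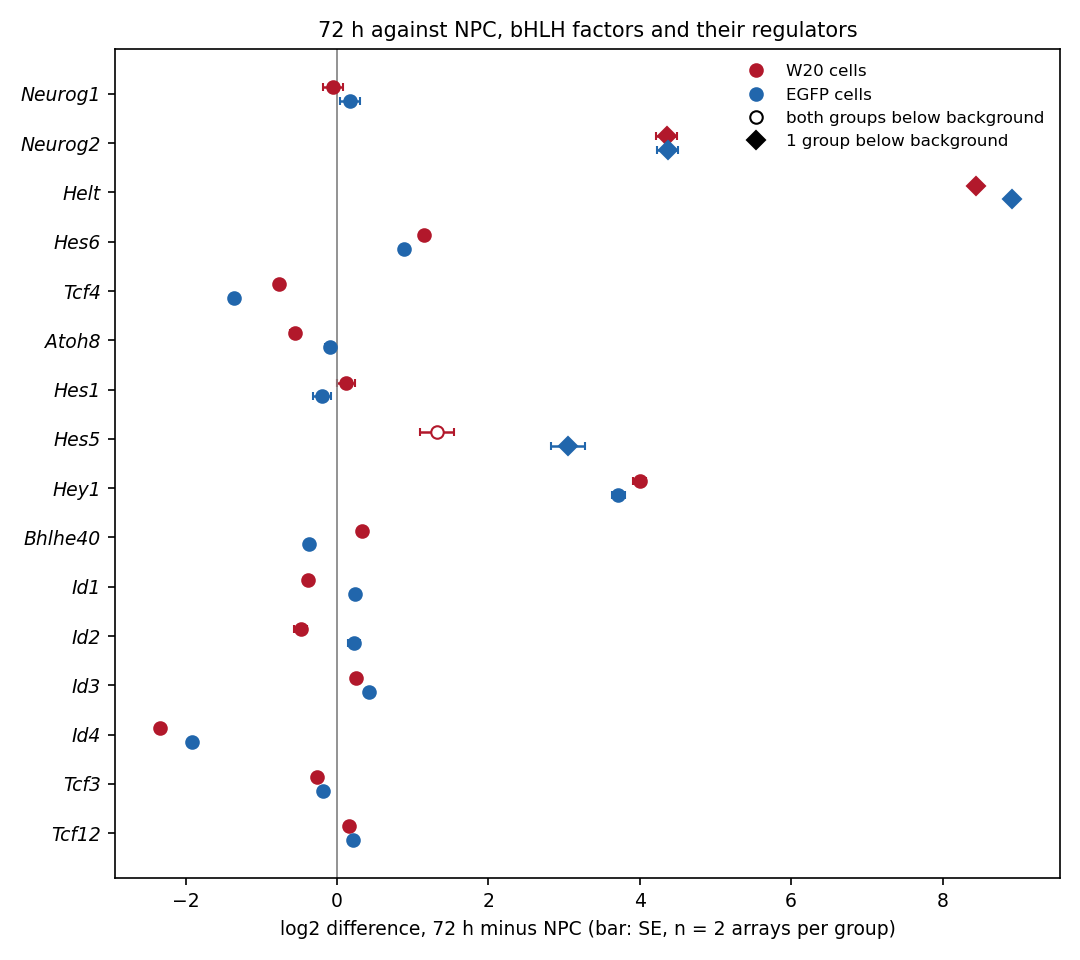
Log2 difference of 72 h minus NPC (bars, SE; 2 arrays per group) for the 5 tested genes and 11 regulators or relatives, in W20 cells (red) and EGFP cells (blue). Diamonds are fitted values with 1 group not well above background, for which the text gives lower bounds; open circles have both groups so. Helt, Neurog2 and Hey1 lie far to the right in both kinds of cells.

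Among other neural bHLH factors, 11 of 29 listed genes were tested, of which 2 rose and 4 fell at 72 h in W20 cells, and 2 rose and 4 fell in EGFP cells. W20 against EGFP gave 2 higher and 4 lower at 72 h and 0 higher and 3 lower in NPC. Of these calls, 1 rise in each kind of cell, 1 fall in W20 cells and 1 of the 4 lower at 72 h had 1 group below background. Over all genes 37.5% rose and 37.2% fell at 72 h in W20 cells, and 36.1% and 33.8% in EGFP cells. With W20 28.4% of all genes were higher and 24.4% lower at 72 h, and 31.8% and 23.6% in NPC. Scx, the tendon factor scleraxis, had 12917 and 12624 units in W20 cells at 72 h against 26391 and 25638 in EGFP cells at 72 h, and 35804 and 34725 in W20 NPC against 53329 and 54200 in EGFP NPC. It was lower with W20 at 72 h (-0.87 ± 0.0309, adjusted p = 4.08e-05) and in NPC (-0.59 ± 0.0309, adjusted p = 0.00011). Atoh8 was lower with W20 by -1.22 ± 0.0625 at 72 h (adjusted p = 9.46e-05) and by -0.75 ± 0.0625 in NPC (adjusted p = 0.000363). Twist1, a driver of mesenchymal character, was lower by -0.40 ± 0.0568 at 72 h (adjusted p = 0.00247) and by -0.41 ± 0.0568 in NPC (adjusted p = 0.00191). Twist2, its close relative, was instead higher with W20 at 72 h (0.41 ± 0.0486, adjusted p = 0.00132) and did not pass in NPC (-0.06, adjusted p = 0.364). The 6 mesenchymal markers summed to 68684 and 71193 units in W20 cells at 72 h against 113650 to 115150 in EGFP cells at 72 h, and to 78495 and 83258 in W20 NPC against 114000 to 128150 in EGFP NPC.

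Of the E proteins besides Tcf4, Tcf3 and Tcf12 moved little. Tcf3 fell at 72 h by 0.26 in W20 cells (SE 0.0338, adjusted p = 0.000696) and by 0.19 in EGFP cells (SE 0.0338, adjusted p = 0.0032). Tcf12 rose by 0.16 ± 0.052 in W20 cells (adjusted p = 0.0308, passed in 6 of 18 settings) and by 0.21 ± 0.052 in EGFP cells (adjusted p = 0.0125). W20 against EGFP passed for neither, at 72 h (-0.02 and -0.13) or in NPC (0.05 and -0.09), with adjusted p from 0.075 to 0.567.

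The ID proteins were lower in W20 cells, 4 of 4 at 72 h and 4 of 4 in NPC, with medians of -1.07 and -0.51 beside 0.03 and 0.04 over all genes tested. Of all genes 24.4% were called lower with W20 at 72 h and 23.6% in NPC. Id1 had 1675 and 1591 units in W20 cells at 72 h against 3829 and 3458 in EGFP cells at 72 h, and 2307 and 2154 in W20 NPC against 2874 and 3013 in EGFP NPC. Id2 had 733 and 688 units against 2229 and 1816 at 72 h, and 1041 and 1032 units against 1637 and 1647 in NPC, W20 first. The W20 arrays lay below the EGFP arrays in each of these pairs. Groups did not overlap for 78.1% of all genes at 72 h and 80.9% in NPC. At 72 h Id1 was 2.01-fold lower with W20 (adjusted p = 0.000102), Id2 2.55-fold (adjusted p = 0.000145), Id3 2.19-fold (adjusted p = 4.56e-05) and Id4 1.66-fold (adjusted p = 4.77e-05). In NPC the log2 differences were -0.38 for Id1, -0.64 for Id2, -0.96 for Id3 and -0.31 for Id4 (adjusted p = 8.1e-05 to 0.00199). The W20 effect was larger at 72 h for Id1 (-0.62 ± 0.0746, adjusted p = 0.00268), Id2 (-0.71 ± 0.114, adjusted p = 0.00738) and Id4 (-0.42 ± 0.0403, adjusted p = 0.00131), and did not pass for Id3 (-0.16 ± 0.0603, adjusted p = 0.0918).

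Over time Id4 fell in both kinds of cells, by 2.33 at 72 h in W20 cells (5.04-fold, adjusted p = 1.47e-07) and by 1.91 in EGFP cells (3.76-fold, adjusted p = 3.91e-07). Id1 was lower at 72 h than in NPC in W20 cells (-0.39 ± 0.0527, adjusted p = 0.000887) and higher in EGFP cells (0.24 ± 0.0527, adjusted p = 0.00785). Id3 was higher at 72 h in both (0.25 in W20 cells, adjusted p = 0.00224; 0.42 in EGFP cells, adjusted p = 0.000291). Id2 was lower at 72 h in W20 cells (-0.48, adjusted p = 0.00219), and its 0.23 in EGFP cells (adjusted p = 0.0469) passed in 7 of 18 settings.

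**Figure D5:**
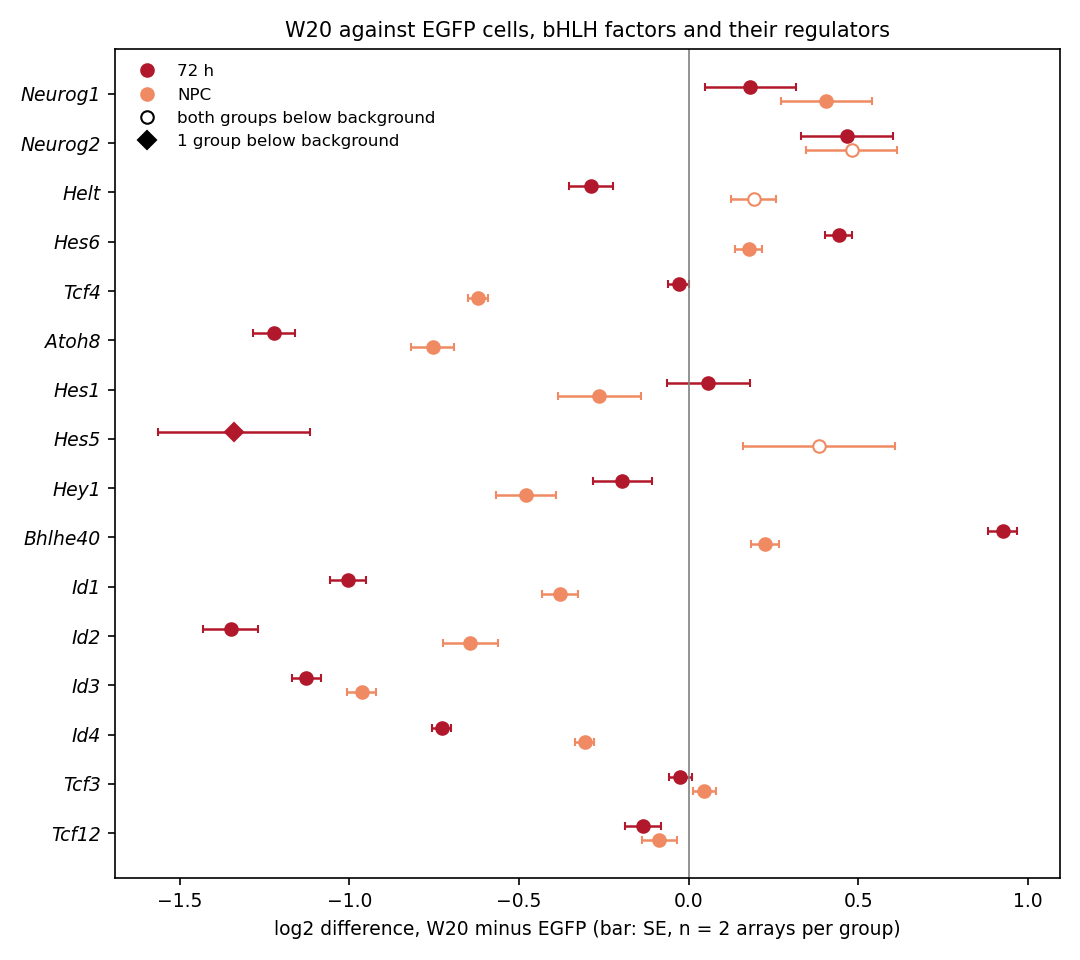
Log2 difference of W20 minus EGFP (bars, SE; 2 arrays per group) for the 5 tested genes and 11 regulators or relatives, at 72 h (dark red) and in NPC (orange). Open circles have both groups not well above background, and the diamond has 1. Id1, Id2, Id3 and Id4 lie left of 0 at both stages, and Hes6 and Bhlhe40 right of 0 at both.

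Of 9 HES and HEY repressors 6 were tested, and at 72 h over NPC 3 rose and 0 fell in W20 cells, while 3 rose and 1 fell in EGFP cells. Of the 3 in W20 cells 1 is Hes5, which was below background at both stages there, and 2 of the 3 in EGFP cells were below background in NPC. Over all genes 37.5% rose and 37.2% fell in W20 cells, and 36.1% and 33.8% in EGFP cells. Hey1, an effector of Notch, had 907 and 819 units in W20 cells at 72 h and 1167 and 1030 in EGFP cells at 72 h, against 60.9 and 52.1 in W20 NPC and 77.2 and 82.0 in EGFP NPC. It rose 16.0-fold in W20 cells (adjusted p = 5.8e-07) and 13.1-fold in EGFP cells (adjusted p = 1.33e-06), which are log2 differences of 4.00 and 3.72, against 2.93 and 2.84 with normexp. Hes5, another Notch effector, was well above background in EGFP cells at 72 h alone, with 58.2 and 52.6 units, against 20.9 and 18.6 units in W20 cells at 72 h. It was at least 2.18-fold lower with W20 at 72 h (adjusted p = 0.0044, and 0.0606 with normexp) and at least 2.98-fold higher at 72 h than in NPC in EGFP cells (adjusted p = 7.47e-05). Hes5 met the filter through the EGFP arrays at 72 h alone. Both differences were therefore built into its being tested, and these p-values add no support. Over all settings these Hes5 log2 differences were as small as -0.35 and 0.49, smaller than the bounds. Hes1, the classic antagonist of proneural genes, passed in none of the 5 comparisons (-0.26 to 0.32, adjusted p = 0.118 to 0.711). Bhlhe40, a repressor also tied to the circadian clock, was higher with W20 by 0.93 ± 0.0421 at 72 h (adjusted p = 7.11e-05) and by 0.23 ± 0.0421 in NPC (adjusted p = 0.00594, and 0.0874 with spike-in scaling).

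Genes known as targets of proneural factors were 27, of which 22 were tested. At 72 h over NPC 15 rose and 3 fell in W20 cells (median 0.82, all genes 0.01) and 14 rose and 5 fell in EGFP cells (median 0.84, all genes 0.01). Of all genes 37.5% rose and 37.2% fell in W20 cells, and 36.1% and 33.8% in EGFP cells. Of the rises, 5 in W20 cells and 6 in EGFP cells were of genes below background in NPC, which passed the filter through other groups, and 1 in W20 cells was of a gene below background at both stages. With genes below background in 1 group at their bound, and that 1 gene left out, the medians were 0.66 in W20 cells and 0.53 in EGFP cells. Of the falls, the largest in W20 cells were those of Sox4 (-0.448, adjusted p = 9.94e-05) and Rnd2 (-0.446, adjusted p = 0.000342). In EGFP cells the largest was that of Ebf2, at least 6.14-fold, which was below background there at 72 h. Insm1, a zinc finger factor of new neurons, gave 233 and 239 units in W20 cells at 72 h and 250 and 230 in EGFP cells at 72 h, against 3.62 to 4.66 units on the 4 NPC arrays. It was at least 12.3-fold higher at 72 h in W20 cells (adjusted p = 5.14e-07) and at least 12.9-fold in EGFP cells (adjusted p = 1.01e-06). Dll1 was at least 7.92-fold higher in W20 cells (adjusted p = 4.79e-07) and at least 9.22-fold in EGFP cells (adjusted p = 8.08e-07). Insm1 and Dll1 met the filter through their 72 h arrays alone, so a difference from NPC was built into their being tested. With normexp the log2 differences in W20 and EGFP cells were 2.41 and 1.92 for Insm1 and 1.59 and 1.38 for Dll1, smaller than these bounds. Between W20 and EGFP cells at 72 h neither passed (Insm1 0.13, adjusted p = 0.415; Dll1 -0.02, adjusted p = 0.856). Over the whole list W20 against EGFP gave 8 higher and 4 lower at 72 h and 7 higher and 4 lower in NPC. In NPC 6 of the 22 tested genes were below background in both groups, among them 1 called higher and 1 called lower. At 72 h 1 of the 4 lower had 1 group below background. The shares of all genes were 28.4% higher and 24.4% lower at 72 h, and 31.8% and 23.6% in NPC. Mfng, which modifies Notch, was higher with W20 at 72 h (1.07 ± 0.0695, adjusted p = 0.000177) and in NPC (1.21 ± 0.0695, adjusted p = 0.000138, and 0.77 with normexp). Rnd3 was instead lower with W20 in NPC (-1.19 ± 0.0588, adjusted p = 9.79e-05), a call that held in 19 of 19 settings.

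The 10 neuronal markers summed to 9451 and 10001 units in W20 cells at 72 h, 8361 and 8876 in EGFP cells at 72 h, 2203 and 2280 in W20 NPC and 2242 and 2313 in EGFP NPC. The 7 astrocyte markers summed to 2006 and 2062 units in W20 cells at 72 h, 2999 and 3228 in EGFP cells at 72 h, 5295 and 5734 in W20 NPC and 12017 and 13134 in EGFP NPC. Their part in the changes of Neurog2, Helt, Hes6 and Tcf4 was not tested.

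Genes of the oligodendrocyte lineage were set beside Olig1 and Olig2. Of 17 listed genes 12 were tested, and at 72 h 9 rose and 1 fell in W20 cells while 8 rose and 1 fell in EGFP cells, 2 of the rises in each being of genes below background in NPC. Over all genes 37.5% rose and 37.2% fell in W20 cells, and 36.1% and 33.8% in EGFP cells. Mobp, a protein of central myelin, was at least 35.3-fold higher at 72 h in W20 cells (adjusted p = 1.06e-05), and by 3.09 on the log2 scale with normexp. It met the filter through its 72 h arrays alone, so a difference from NPC was built into its being tested. Pdgfra, the receptor of oligodendrocyte precursors, fell at 72 h by 0.43 in W20 cells (adjusted p = 0.000324, and 0.192 with the mean of its probes) and by 1.34 in EGFP cells (adjusted p = 4.66e-06, and -0.77 with the mean of its probes).

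Of 13 genes of the GABA lineage, to which Helt is tied in the midbrain, 9 were tested, and 2 rose and 4 fell at 72 h in each kind of cell. Of the falls, 1 in EGFP cells was of a gene below background at both stages, Lhx5, whose fall in W20 cells has a bound of only 1.06-fold. The shares of all genes that rose and fell were 37.5% and 37.2% in W20 cells, and 36.1% and 33.8% in EGFP cells. Gad2, which makes GABA, rose by 1.55 ± 0.0602 in W20 cells (2.92-fold, adjusted p = 4.05e-06) and by 1.17 ± 0.0602 in EGFP cells (2.25-fold, adjusted p = 1.84e-05), against 0.76 and 0.44 with normexp, and Gata3 by 0.93 ± 0.0309 and 0.65 ± 0.0309 (adjusted p = 2.29e-06 and 1.37e-05). Dlx1 and Dlx2, homeobox factors of forebrain interneurons, were instead lower at 72 h than in NPC. In W20 cells the differences were -1.024 ± 0.0972 and -0.957 ± 0.0701 (adjusted p = 0.000172 and 5.48e-05). In EGFP cells they were -1.675 ± 0.0972 and -1.435 ± 0.0701 (adjusted p = 2.89e-05 and 1.5e-05). Dlx1 and Dlx2 were also lower with W20 than with EGFP in NPC, by -1.88 ± 0.0972 and -1.49 ± 0.0701 (adjusted p = 0.000108 and 8.84e-05). At 72 h they were lower with W20 by -1.23 ± 0.0972 and -1.01 ± 0.0701 (adjusted p = 0.000342 and 0.000221), with -0.81 for Dlx1 under normexp. No gene of this list was higher with W20 past the test at either stage, beside 28.4% of all genes at 72 h and 31.8% in NPC.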

How the data were processed

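Total RNA of the 8 samples was labelled with Cy3 and hybridised to Whole Mouse Genome 4x44K arrays, per the labels' protocols. The deposited scanner files give linear spot intensity, per the file headers the output of Feature Extraction 10.7.3.1 (Agilent), with background already subtracted in the processed signal. The deposited value table holds log2 values; its columns for NPC equal their own arrays after a shift, while those named replicate 1 at 72 h equal means of NPC columns, so it served only as an alternative in NPC. The authors' steps for that table are not given in the sources used here.

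Signals were taken as log2 minus each array's 75th percentile. Control spots and outlier flags were left out and spots of a probe averaged. Accessions were matched to a RefSeq table of GRCm38.p6 (13590 probes stayed without a symbol). The brightest probe of a gene over all arrays was tested if each array of at least 1 group had it well above background. One model of 4 group means over 8 arrays was fitted with limma 3.58.1 in R 4.3.3 (4 residual and 1.76 prior degrees of freedom), two-sided, adjusted p threshold 0.05, for 5 comparisons; the method was tested on simulated data. Alternatives were normexp (offset 50; on the median spot signal, as the files hold no mean signal), median, quantile and spike-in scaling, other filters and probe rules, fits of fewer arrays and a replicate block.

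The 9 genes and all lists were chosen with earlier results of these data known. Named by rule were all 9 genes, any tested gene of the E protein, ID, HES/HEY and other bHLH lists, and from each remaining list the 2 called genes with the largest rise and the 2 with the largest fall in a comparison; some of these are not reported here. Equal replicate numbers did not pair samples: deviations of same-numbered arrays correlated at -0.09 to 0.15.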

Additional observations from a re-analysis of the deposited data

Results flagged for a closer look

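For Tcf4 and Hes6 the effect of W20 against EGFP differed between 72 h and NPC by a test of that difference (limma, Benjamini-Hochberg over 13617 genes). For Tcf4 the difference of the effects was 0.592 ± 0.043 on the log2 scale (adjusted p = 0.000615): the gene was lower with W20 in NPC and not past the test at 72 h. For Hes6 it was 0.265 ± 0.056 (adjusted p = 0.0181), with W20 higher at both stages. Helt passed the same test, at -0.479 ± 0.0935 (adjusted p = 0.0139), but its NPC signals of 3.66 to 4.39 units were not well above background in either group, so that its effect of W20 in NPC was not measured. The Helt value was -0.12 with normexp (adjusted p = 0.738), and its test no longer passed without EGFP 72 h replicate 1 (adjusted p = 0.0504). Of all genes 30.9% passed in this comparison. In the fit over all probes the dimmer probe passed neither for Tcf4 (0.26, adjusted p = 0.482) nor for Hes6 (0.33, adjusted p = 0.0664).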

How the results depend on the processing

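The rises of Neurog2, Helt and Hes6 and the fall of Tcf4 at 72 h passed in each setting in which they could be fitted, as did the fall of Tcf4 with W20 in NPC and the rise of Hes6 with W20 at 72 h. Neurog2 and Helt entered the filtered fits through their 72 h arrays alone. A difference from NPC was therefore built in there, and their passing adds no support. With normexp, whose offset of 50 shrinks dim signals by construction, Helt differed at 72 h by 4.60 in W20 and 4.71 in EGFP cells, Neurog2 by 1.39 and 0.89, and the W20 difference of Neurog2 in NPC turned to -0.174; normexp left 2 members called in NPC and 1 at 72 h. In NPC 2 members were called also with spike-in scaling, without a filter, with only the 2 groups compared and with the authors' deposited values; the cause was not tested. Testing only genes well above background on all 8 arrays removes Neurog2 and Helt, which left 1 member called for W20 at 72 h and 2 for each comparison of stages. Spike-in scaling called 4700 genes in NPC, 4151 at 72 h and 1906 in the difference of effects, and median scaling 2795 there, against 7551, 7182 and 4201. Leaving out 1 array left 1 to 4 members called in NPC, 1 to 3 at 72 h, 1 to 3 in the difference and 4 in each comparison of stages. The lowest of these counts came without EGFP NPC replicate 1 in NPC (2 without EGFP NPC replicate 2), without EGFP 72 h replicate 1 or W20 72 h replicate 2 at 72 h, and without EGFP 72 h replicate 1 in the difference. The replicate block called 7542 genes in NPC, 7131 at 72 h and 3998 in the difference, and of the 9 genes only the NPC call of Neurog1 ended (adjusted p = 0.0651). Signal over background limits 4 of the 9 genes, which could not be tested.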
